A study of Mus musculus with 24 samples.

Results

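The genes described here serve fatty acid uptake and lipid storage in the mouse maternal-fetal interface (MFI), where the decidua of the mother meets the placenta of the fetus. They were the cytosolic fatty acid-binding proteins *Fabp3*, *Fabp4* and *Fabp5*, the fatty acid translocase *Cd36*, the extracellular lipases *Lpl* and *Lipg*, the fatty acid transport proteins *Slc27a1* and *Slc27a4*, and the lipid droplet coat gene *Plin2*. These 9 genes of the 55401 in the count table were chosen by name, and low *Fabp4* counts in C1qtnf6-KO libraries on gestation day gd16.5 entered that choice. KO against WT at gd16.5 is therefore given as a description, with no test.

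Bulk polyA RNA was sequenced from the MFI of wild-type (WT) mice and of homozygous C1qtnf6-KO mice on gd10.5 and gd14.5 and later on gd16.5 and gd19.5, in 3 libraries of each of the 8 groups and 24 libraries in all. Both genotypes were on the C57BL/6 background, and the KO line lacks the exons of *C1qtnf6*, which encodes the secreted protein CTRP6. The KO mice are described as homozygous, and loss of the gene in the mother and in the fetus cannot be told apart here. The labels name no dam, litter or fetal sex and no separate animals, so the p-values measure the spread between these libraries. Whether all of them come from separate dams, litters or fetuses is not known. In bulk tissue, fewer cells of a type and less RNA per cell cannot be told apart.

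Fatty acids for the fetus are released from maternal lipoproteins by lipoprotein lipase (*Lpl*) and endothelial lipase (*Lipg*) at the cell surface. They enter cells with the help of *Cd36* and the *Slc27a* transport proteins, which also couple uptake to activation with coenzyme A. Inside the cell the FABPs carry them through the cytosol, and what is not burned or passed on is stored as triacylglycerol in droplets coated by perilipins such as *Plin2*. *Fabp3* is known as the heart and muscle form, *Fabp4* as the adipocyte form that is also made by capillary endothelium and macrophages, and *Fabp5* as the epidermal form.

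Total counts per library ran from 20975717 to 37383108, and the 9 genes had between 221 and 13608 counts in every library, so all 9 passed the expression filter in each comparison. *C1qtnf6* had at least 1625 counts in every WT library (64.7 CPM, counts per 1000000 of effective library size) and at most 45 (2.05 CPM) in every KO library, in keeping with the labels. Markers of decidual stroma (summed level 3410 to 14100 CPM), junctional zone trophoblast (3020 to 78100), labyrinth trophoblast (314 to 822), endothelium (905 to 2320), macrophages (460 to 1260), NK cells (66.8 to 1230), uterine smooth muscle (385 to 1570), mesothelium (57.3 to 231) and fetal red cells (648 to 9220) were found in all libraries. *Synb*, a labyrinth marker, never exceeded 3 counts. The smooth muscle sum was mostly *Des* (284 to 1530 CPM), whereas *Tagln* never exceeded 1.09 CPM and *Cnn1* 5.93. The macrophage sum was mostly *Csf1r* (329 to 999 CPM) and *Cd68* (102 to 239). *Adgre1*, *C1qa*, *C1qb*, *C1qc* and *Mrc1* each stayed at 20 CPM or less, so both sums rest on few genes. Other sums were uneven too, with much from *Prl8a2* in decidual stroma (1470 to 12700 CPM) and *Cdh5* in endothelium (408 to 1370). Of the NK cell markers, *Ncr1* never exceeded 4.72 CPM and *Klrb1c* 2.68, whereas *Il2rb* never fell below 49.7. The summed level of 5 skeletal or heart muscle markers stayed between 4.72 and 11 CPM. The 6 adipocyte markers summed to 0.195 to 6.41 CPM. *Cfd* was at 0 in all libraries, and *Adipoq* (at most 4 counts), *Lep* (2) and *Plin1* (1) were near 0, whereas *Retn* reached 22 counts and *Cidec* 202. Visceral yolk sac markers were uneven, with a summed level from 34.1 to 21600 CPM. The 4 Y-linked genes gave a sum of 40.0 CPM or more in 9 libraries, and no other library exceeded 1.70 CPM. These were KO replicate 2 at gd10.5 and replicate 3 of each genotype at gd14.5. At gd16.5 they were WT replicate 1 and KO replicates 1 and 2, and at gd19.5 WT replicate 2 and KO replicates 2 and 3. A part of fetal sex in the KO against WT values was not tested.

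The first question was how strongly each gene was expressed, which can be compared between genes only per length. Levels are given as reads per kilobase of the principal transcript in GENCODE M21, scaled to library size as CPM is (RPKM). At gd10.5 in WT, *Fabp4* was highest with 288 ± 112 RPKM (SD, n = 3), followed by *Fabp5* with 135 ± 36.7 and *Plin2* with 116 ± 5.21. *Fabp3* (56.0 ± 12.3) and *Lipg* (50.1 ± 25.4) came next, and *Slc27a4* (5.99 ± 0.408), *Cd36* (4.66 ± 0.47), *Lpl* (4.65 ± 1.06) and *Slc27a1* (3.81 ± 0.53) were lowest. The libraries of *Fabp5* and *Plin2*, of *Fabp3* and *Lipg*, of *Cd36* and *Lpl*, and of *Lpl* and *Slc27a1* overlapped in that order.

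By gd19.5 the order in WT was led by *Fabp3* with 501 ± 56.5 RPKM, ahead of *Fabp4* with 145 ± 15.3, *Plin2* with 122 ± 7.6, *Lipg* with 91.9 ± 8.65, *Fabp5* with 80.5 ± 9.12 and *Cd36* with 37.2 ± 0.548. *Lpl* (14.1 ± 1.19), *Slc27a4* (9.86 ± 0.457) and *Slc27a1* (4.95 ± 0.331) closed it, and *Lipg* and *Fabp5* were the only neighbours whose WT libraries overlapped. In KO at gd19.5 *Fabp3* also stood first with 454 ± 32.8 RPKM, and the libraries of *Plin2* (126 ± 6.13), *Fabp4* (113 ± 23.8), *Lipg* and *Fabp5* (75.1 ± 14.6) overlapped from each gene to the next.

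The length used matters for *Fabp4* and *Fabp5*. The count table merges all annotated exons of a gene, which for *Fabp4* (chr3:10204088-10208576, minus strand, GRCm38) gives 4489 bases against 896 in the 4-exon principal transcript, since 1 annotated transcript keeps introns. With the merged length, *Fabp4* in WT at gd10.5 was at 57.4 RPKM and *Fabp5* (chr3:10012548-10016607, plus strand) at 37.3 RPKM, both below *Plin2* at 62.1 RPKM. All comparisons of a gene with itself across libraries are free of this length and are given in CPM.

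**Figure D1:**
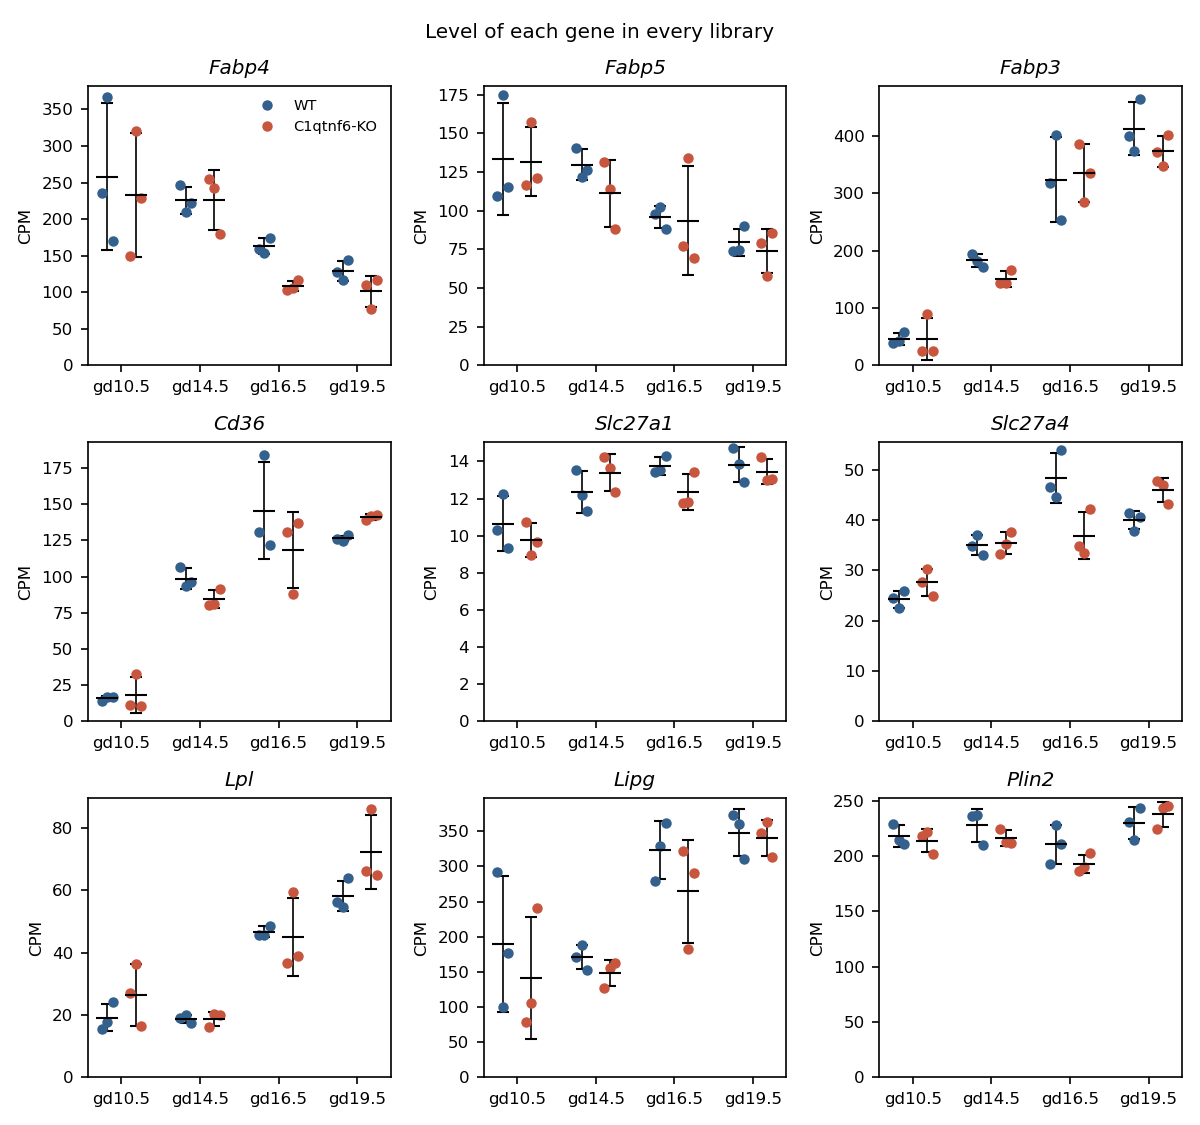
CPM (linear axis from 0) of the 9 genes in the 24 libraries by stage, WT in blue and C1qtnf6-KO in red; points are libraries, black marks the mean and bars the SD of 3 libraries. *Fabp3* and *Cd36* climb from gd10.5, *Lpl* climbs after gd14.5, *Fabp4* and *Fabp5* have lower means at gd16.5 and gd19.5 than before, and *Plin2* lies between 186 and 245 CPM throughout.

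*Fabp3* and *Cd36* rose together between gd10.5 and gd14.5 in both genotypes. *Fabp3* (ENSMUSG00000028773, chr4:130308595-130315463, plus strand) had 38.5, 42.2 and 57.5 CPM in the WT libraries on gd10.5, then 195, 182 and 172 CPM on gd14.5, 317, 401 and 253 on gd16.5, and 400, 374 and 464 on gd19.5. In KO it had 25.5, 88.7 and 24.6 CPM on gd10.5, then 143, 143 and 166 on gd14.5, 386, 285 and 336 on gd16.5, and 372, 347 and 401 on gd19.5. Every library from gd14.5 on lay above every library of gd10.5, and the mean at gd19.5 was 8.95 times that at gd10.5 in WT and 8.07 times in KO.

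Between gd10.5 and gd14.5 *Fabp3* rose 4.00-fold in WT (log2 fold change 2.00 ± 0.18 SE, adjusted p = 1.117e-06) and 3.25-fold in KO (1.70 ± 0.40, adjusted p = 0.005535), by the quasi-likelihood test of edgeR with Benjamini-Hochberg adjustment over all genes. Without KO gd10.5 replicate 2, described below, the KO value was 2.59, above that of WT, and over the 6 omissions of 1 KO library it ran from 1.40 to 2.59. A gene was called when its adjusted p was under 0.05 and its absolute log2 fold change over 1. From gd14.5 to gd16.5 the log2 fold change was 0.83 in WT (adjusted p = 0.003968 in edgeR), under the fold limit, and 1.16 in KO, where the adjusted p of 0.06424 missed the threshold. DESeq2 called that KO step (adjusted p = 0.01717), as did edgeR without the expression filter (0.01937) and in 1 fit of all libraries (0.01335).

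*Cd36* (ENSMUSG00000002944, chr5:17781690-17888801, minus strand) had 14.0, 16.9 and 16.6 CPM in WT on gd10.5, 107, 93.1 and 96.0 on gd14.5, 131, 184 and 122 on gd16.5, and 126, 125 and 128 on gd19.5. In KO its levels were 11.4, 32.7 and 10.4 CPM on gd10.5, 80.2, 81.0 and 91.5 on gd14.5, 130, 87.9 and 137 on gd16.5, and 139, 142 and 143 on gd19.5. The libraries of gd10.5 again lay below all later ones. The rise to gd14.5 was 6.25-fold in WT (log2 fold change 2.64 ± 0.14 SE, adjusted p = 1.895e-08, edgeR) and 4.63-fold in KO (2.21 ± 0.36, adjusted p = 0.000834). Without KO gd10.5 replicate 2 the KO value was 2.95, also above that of WT, and over the 6 omissions it ran from 1.93 to 2.95.

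At this step 10.7% of the genes tested were called higher and 11.6% lower in WT, against 8.53% and 10.2% in KO. Of the 9 genes, the same 2 were called higher in WT and in KO and none lower. *Slc27a4* passed the adjusted p in WT (log2 fold change 0.54, adjusted p = 0.0001469 in edgeR) and in KO (0.35, 0.01724), but not the fold limit, as did *Slc27a1* in KO (0.45, 0.005212). The gd14.5 libraries stand in this step and in the next, so the steps are not independent of each other.

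*Fabp3* and *Cd36* also varied together among libraries of one group. Over the 24 libraries, the deviations of log2 CPM from the 8 group means had a Pearson r of 0.94 (Spearman rho 0.81) between both genes. These points share their libraries and depth, and 1 KO library of gd10.5 stands apart on both. That library, replicate 2, had 88.7 CPM of *Fabp3* and 32.7 of *Cd36*, against at most 25.5 and 11.4 in the other KO libraries of its stage. It also had 18370 CPM of junctional zone markers (3289 and 3021 in the others), and 471 CPM of NK cell markers (1224 and 1145). Its Y-linked genes summed to 71.1 CPM, against 0.0374 and 0.311 in the other KO libraries and at most 0.254 in WT at gd10.5. Whether its makeup or fetal sex has a part in these levels was not tested. The quotient of *Fabp3* to *Cd36* CPM stayed between 1.77 and 3.61 in all 24 libraries, while *Fabp3* itself ran from 24.6 to 464 CPM.

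**Figure D2:**
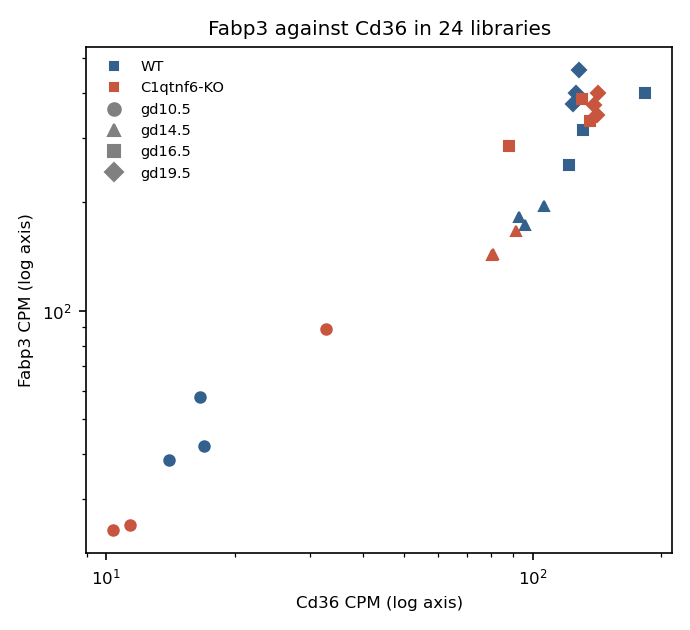
CPM of *Fabp3* against CPM of *Cd36* on log axes, 1 point per library, WT in blue and C1qtnf6-KO in red, with the marker shape giving the stage. The gd10.5 libraries sit at the lower left, with KO replicate 2 (32.7 and 88.7 CPM) apart from the other gd10.5 points, and later stages sit at the upper right.

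A near-identical copy limits the *Fabp3* values. *Fabp3-ps1*, a processed pseudogene (chr10:86731987-86732388, minus strand, GRCm38), matches the coding sequence of *Fabp3* over its 402 bases with 3 mismatches and no gap, which is 99.3% identity. Counted from the first base of the start codon, with the *Fabp3* base first, the mismatches are A40T, C297T and G334A. Bases 277 to 354 are shown in both, from the GENCODE M21 transcripts, since they hold the latter 2 mismatches, which are in capitals.
Fabp3: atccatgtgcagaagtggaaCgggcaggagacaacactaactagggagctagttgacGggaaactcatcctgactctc
Fabp3-ps1: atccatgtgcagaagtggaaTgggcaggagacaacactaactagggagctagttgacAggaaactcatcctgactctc
The pseudogene had 443 to 7864 counts per library, in all 65.3% of the *Fabp3* total, and its log2 CPM had a Pearson r of 1.00 with *Fabp3* over 24 libraries. How reads of one place were split between both cannot be told from the counts. With both summed, a choice made after seeing the data, the rise to gd14.5 was 1.99 in WT and 1.69 in KO (log2). *Fabp3* also shares 81 exon bases with *Zcchc17* and 80 with *Gm10570* on the opposite strand, and the counting ignored strand.

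The promoter of *Cd36* is shown because *Cd36* had the largest log2 fold change of the 9 genes from gd10.5 to gd14.5, and that of *Plin2* because its stage means differed least. Both are bases before the RefSeq start on GRCm38.p6, at chr5:17835897-17836146 (minus strand) for *Cd36*, inside the annotated span of that gene, and at chr4:86670061-86670309 (minus strand) for *Plin2*. Capitals mark AGGTCA, the half-site bound by PPAR and related nuclear receptors, GGGCGG and CCAAT, each searched on both strands, with no overlap between them.
Cd36: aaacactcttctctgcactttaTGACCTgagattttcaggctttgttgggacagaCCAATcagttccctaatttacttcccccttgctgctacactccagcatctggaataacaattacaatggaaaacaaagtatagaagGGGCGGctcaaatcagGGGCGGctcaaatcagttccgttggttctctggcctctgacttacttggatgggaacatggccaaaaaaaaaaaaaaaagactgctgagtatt
Plin2: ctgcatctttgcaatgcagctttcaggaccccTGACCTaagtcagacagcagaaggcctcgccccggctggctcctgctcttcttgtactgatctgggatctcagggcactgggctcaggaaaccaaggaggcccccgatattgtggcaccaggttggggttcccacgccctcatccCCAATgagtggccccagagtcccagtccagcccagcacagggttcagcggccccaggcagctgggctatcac
The half-site lies on the opposite strand, 228 to 223 bases before the start of *Cd36* and 218 to 213 before that of *Plin2*. It is found in 14.0% of all 32851 RefSeq windows of 250 bases, and so marks neither gene out. GGGCGG is in 32.7%, CCAAT in 33.8% and TATAAA, absent from the windows of these genes, in 12.4%. The direct repeat of 2 half-sites with 1 base between them, known as the PPAR response element, is in 0.0335% of windows and in none of these. Windows were matched for 5 of the 9 genes, the others being *Fabp3*, *Slc27a1* and *Slc27a4*.

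*Lpl* rose one step later than *Fabp3* and *Cd36*. *Lpl* (ENSMUSG00000015568, chr8:68880491-68907448, plus strand), which releases fatty acids from circulating triacylglycerol, had 15.6, 17.8 and 24.03 CPM in WT on gd10.5, 18.9, 19.98 and 17.4 on gd14.5, 45.7, 45.7 and 48.7 on gd16.5, and 56.2, 54.6 and 63.8 on gd19.5. In KO it had 27.0, 36.2 and 16.4 CPM on gd10.5, 16.1, 20.28 and 20.025 on gd14.5, 36.8, 59.4 and 39.0 on gd16.5, and 66.0, 86.0 and 64.9 on gd19.5. No library of gd14.5 reached the levels of gd16.5 in either genotype.

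From gd14.5 to gd16.5 *Lpl* rose 2.49-fold in WT (log2 fold change 1.32 ± 0.13 SE, adjusted p = 2.929e-05, edgeR) and 2.40-fold in KO (1.27 ± 0.27, adjusted p = 0.009464). It was the 1 gene called at this step in each genotype, *Fabp4* not being tested here, where 3.04% of genes were called higher and 2.55% lower in WT and 4.78% and 2.76% in KO. *Lipg*, endothelial lipase, acts mainly on phospholipids and is located on chromosome 18. Its WT levels ran from 101 to 292 CPM on gd10.5, 153 to 188 on gd14.5, 279 to 362 on gd16.5 and 311 to 373 on gd19.5, so that gd16.5 lay wholly above gd14.5. The log2 fold change of that step was 0.93 in WT (adjusted p = 0.02687, edgeR), under the fold limit, and 0.83 in KO (adjusted p = 0.1184). Without WT gd16.5 replicate 1 it was 1.02 in WT with an adjusted p of 0.03437, and *Lipg* was then called.

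*Fabp4* and *Fabp5* had lower means at the later stages. *Fabp4* (ENSMUSG00000062515) had 235, 367 and 170 CPM in WT on gd10.5, 246, 210 and 221 on gd14.5, 160, 154 and 175 on gd16.5, and 128, 117 and 144 on gd19.5. In KO it had 150, 320 and 229 CPM on gd10.5, 255, 243 and 179 on gd14.5, 103, 106 and 117 on gd16.5, and 111, 76.8 and 116 on gd19.5. Every library of gd16.5 and gd19.5 lay below every gd14.5 library of its genotype, and the mean at gd10.5 was 1.99 times that at gd19.5 in WT and 2.30 times in KO.

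From gd14.5 to gd16.5 the log2 fold change of *Fabp4* was -1.06 in KO and -0.47 in WT. The gd16.5 values of *Fabp4* entered the choice of genes, so its steps into and out of that stage are a description with no test. From gd10.5 to gd14.5, which does not use them, it was -0.05 in KO and -0.19 in WT (adjusted p = 0.885 and 0.4581, edgeR).

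*Fabp5* had 109 to 175 CPM in WT on gd10.5, 122 to 141 on gd14.5, 87.9 to 102 on gd16.5 and 73.7 to 89.8 on gd19.5. In KO the ranges were 117 to 158, 88.3 to 131, 69.4 to 134 and 57.9 to 85.4 CPM. The WT mean at gd10.5 was 1.68 times that at gd19.5, but no single step was called (log2 fold change -0.43 from gd14.5 to gd16.5 in WT, adjusted p = 0.05887, edgeR). *Fabp5* has 5 annotated copies of at least 90% identity, whose counts came to 8.28% of its own and mostly belonged to *Gm6166*. Deviations of *Fabp4* and *Fabp5* from their group means had a Pearson r of 0.62 (Spearman rho 0.66) over 24 libraries.

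The transport proteins and *Plin2* passed the fold limit at no step. *Slc27a4* (ENSMUSG00000059316, chr2:29802634-29817522, plus strand), a fatty acid transport protein of the plasma membrane and endoplasmic reticulum, had 24.5, 22.5 and 25.8 CPM in WT on gd10.5, 34.8, 37.1 and 33.1 on gd14.5, 46.5, 44.5 and 53.9 on gd16.5, and 41.4, 37.9 and 40.6 on gd19.5. In KO it had 27.6, 30.4 and 25.0 CPM, then 33.3, 35.2 and 37.7, then 34.9, 33.5 and 42.2, and last 47.7, 47.0 and 43.2. In WT it was highest at gd16.5 with no overlap with either neighbouring stage, whereas in KO the gd14.5 and gd16.5 libraries overlapped and gd19.5 was highest.

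*Slc27a4* passed the adjusted p from gd14.5 to gd16.5 in WT (log2 fold change 0.47 ± 0.08 SE, adjusted p = 0.001761, edgeR), and the KO value was 0.06 ± 0.10 (adjusted p = 0.7355). This difference between genotypes rests on gd16.5 and was not tested. *Slc27a1*, the transport protein best known from muscle and fat, lay between 8.95 and 14.7 CPM in all 24 libraries. *Plin2*, which coats lipid droplets in most cell types, lay between 186 and 245 CPM in all 24 libraries. Its coefficient of variation within groups was at most 8.27%, and the highest stage mean was 1.09 times the lowest in WT and 1.23 times in KO. The *Plin2* log2 fold change from gd16.5 to gd19.5 in KO was 0.30 ± 0.07 (adjusted p = 0.06523, edgeR).

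Between gd16.5 and gd19.5 *Fabp4* was not tested. None of the other genes was called in WT, where 1.2% of genes were called higher and 0.939% lower. None of them was called in KO either, with 0.255% and 0.439%. By edgeR without adjustment, p was under 0.05 for 2 genes in WT and 3 in KO, and DESeq2 called none in either.

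**Figure D3:**
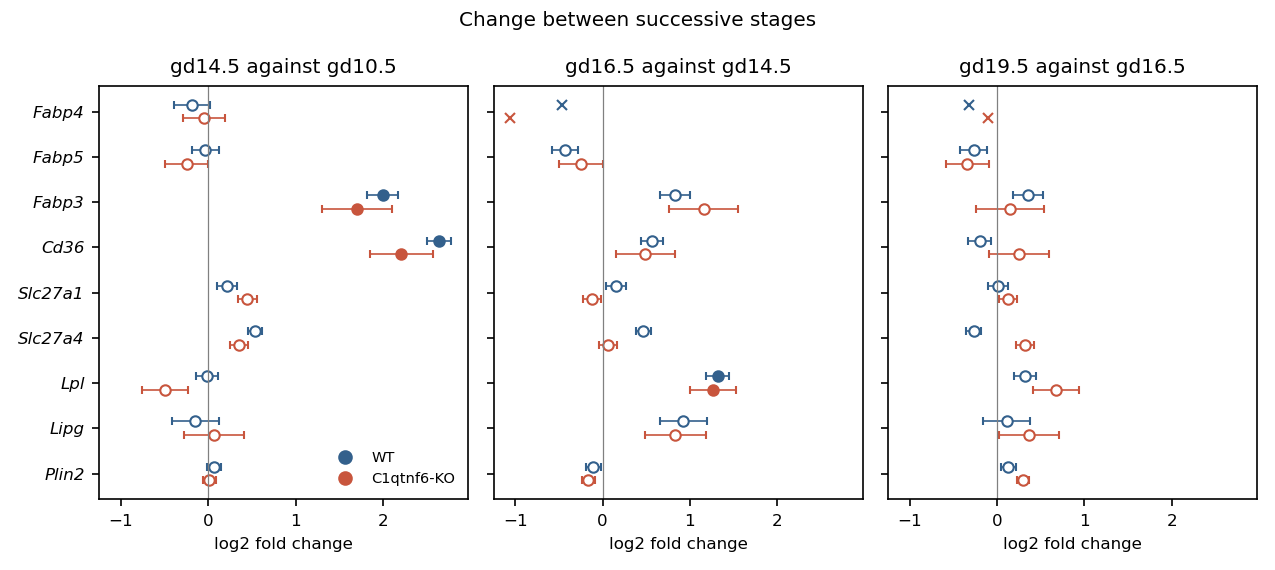
log2 fold change of each gene between successive stages (edgeR, bars are SE), WT in blue and C1qtnf6-KO in red; filled points passed the adjusted p and the fold limit, open points did not, and crosses without bars mark *Fabp4* steps that use gd16.5, which were not tested. *Fabp3* and *Cd36* are filled at the first step, *Lpl* in both genotypes at the second, and no gene at the third.

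The second question was whether loss of *C1qtnf6* changed these genes. At gd10.5 none of the 9 was called between KO and WT, in a comparison where 0.00572% of genes were called, and every adjusted p was 1. Groups overlapped for all 9 genes, against 4.18% of genes whose groups did not overlap. The 95% intervals of the log2 fold change were wide at this stage, from -1.22 to 1.24 for *Fabp3*, -0.998 to 0.716 for *Fabp4* and -1.68 to 0.84 for *Lipg*, and narrow for *Plin2* (-0.25 to 0.20). Without KO replicate 2, the library that stands apart, the log2 fold change of *Fabp3* moved from 0.01 to -0.87 and that of *Cd36* from 0.20 to -0.54, both with an adjusted p of 0.9986 by edgeR.

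At gd14.5 again no gene of the 9 was called (background 0.0166%). The KO libraries of *Fabp3* (143 to 166 CPM) and of *Cd36* (80.2 to 91.5 CPM) lay wholly below those of WT (172 to 195 and 93.1 to 107), 2 of the 9 genes where 12.5% of all genes did not overlap in either direction. The log2 fold change was -0.29 for *Fabp3* (95% interval -0.46 to -0.11, adjusted p = 0.6478, edgeR) and -0.23 for *Cd36* (-0.40 to -0.07, adjusted p = 0.6933), and these were the 2 genes with an unadjusted p under 0.05. The labyrinth markers were also lower, with summed levels of 651 to 708 CPM in KO and 728 to 822 in WT. Yolk sac markers were lower as well (106 to 120 against 137 to 214 CPM, with all 5 means lower), and fetal red cell markers higher (2890 to 3520 against 2670 to 2850, all 5 higher). Their part in these values was not tested. *Fabp4* was level at this stage, with a log2 fold change of -0.00 (-0.27 to 0.27).

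At gd16.5, the stage that entered the choice, *Fabp4* had 160, 154 and 175 CPM in WT and 103, 106 and 117 in KO, so the groups did not overlap. The mean was 163 ± 10.8 CPM in WT and 109 ± 7.13 in KO, a log2 fold change of -0.57. *Slc27a4* did not overlap either (44.5 to 53.9 CPM in WT, 33.5 to 42.2 in KO), with a log2 fold change of -0.38. In this comparison 17.7% of all genes did not overlap, and nothing is read from the 2 genes here. The log2 fold changes of the others were -0.29 for *Cd36*, -0.28 for *Lipg*, -0.15 for *Slc27a1*, -0.11 for *Plin2*, -0.04 for *Lpl*, -0.02 for *Fabp5* and 0.07 for *Fabp3*. The median over the 9 genes was -0.15 and over all genes 0.01.

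Several marker lists moved with genotype at gd16.5. All 9 endothelial markers had a lower mean in KO and 2 of them did not overlap, with summed levels of 1250 to 1690 CPM in WT and 905 to 1310 in KO. All 5 junctional zone markers lay wholly above WT (71600 to 78100 against 44800 to 60200 CPM summed). Decidual stroma (3410 to 3780 in KO, 4070 to 4790 in WT), uterine smooth muscle (385 to 465, 504 to 695) and labyrinth markers (382 to 589, 598 to 703) were lower in sum without overlap. Of the 6 NK cell markers, 2 lay wholly below WT and 3 wholly above. All 5 fetal red cell markers had a lower mean in KO, each with overlap. Their part in the *Fabp4* and *Slc27a4* values was not tested. Per 100 CPM of endothelial markers, *Fabp4* had 12.8, 12 and 10.3 CPM in WT and 9.71, 11.7 and 8.91 in KO, and on this scale the groups overlapped. Macrophage markers overlapped in sum (903 to 1260 CPM in WT, 946 to 1100 in KO).

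One library decides some of the gd16.5 values. KO replicate 2 had 21610 CPM of yolk sac markers, against 7682 and 204 in the other KO libraries and 8031, 241 and 216 in WT. It had the highest *Fabp5* (134 CPM against 77.0 and 69.4) and *Lpl* (59.4 against 36.8 and 39.0) of the KO group, and the lowest *Lipg* (182 against 321 and 290) and *Cd36* (87.9 against 130 and 137). Whether yolk sac tissue has a part in these levels was not tested. Leaving out each library in turn moved *Fabp5* between -0.38 and 0.15, *Cd36* between -0.40 and -0.09 and *Lpl* between -0.29 and 0.09. For *Fabp4*, whose values here entered the choice, the range was -0.63 to -0.52, and nothing is read from it.

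At gd19.5 *Fabp4* had 128, 117 and 144 CPM in WT and 111, 76.8 and 116 in KO. The highest KO library lay just under the lowest WT library. The log2 fold change was -0.39 (95% interval -0.70 to -0.07, adjusted p = 0.3002, edgeR), so the difference did not pass the test after adjustment. Without KO replicate 2 (76.8 CPM) it was -0.22, and over the 6 omissions of 1 library it lay between -0.50 and -0.22. All 9 endothelial markers had a higher mean in KO at gd19.5, and 4 of them did not overlap. Macrophage markers were also higher in sum in KO (989 to 1020 CPM against 833 to 933). The part of either marker list in the *Fabp4* values was not tested. Per 100 CPM of endothelial markers *Fabp4* ran from 10.1 to 13.2 CPM in WT and had 8.61, 5.14 and 9.69 in KO.

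**Figure D4:**
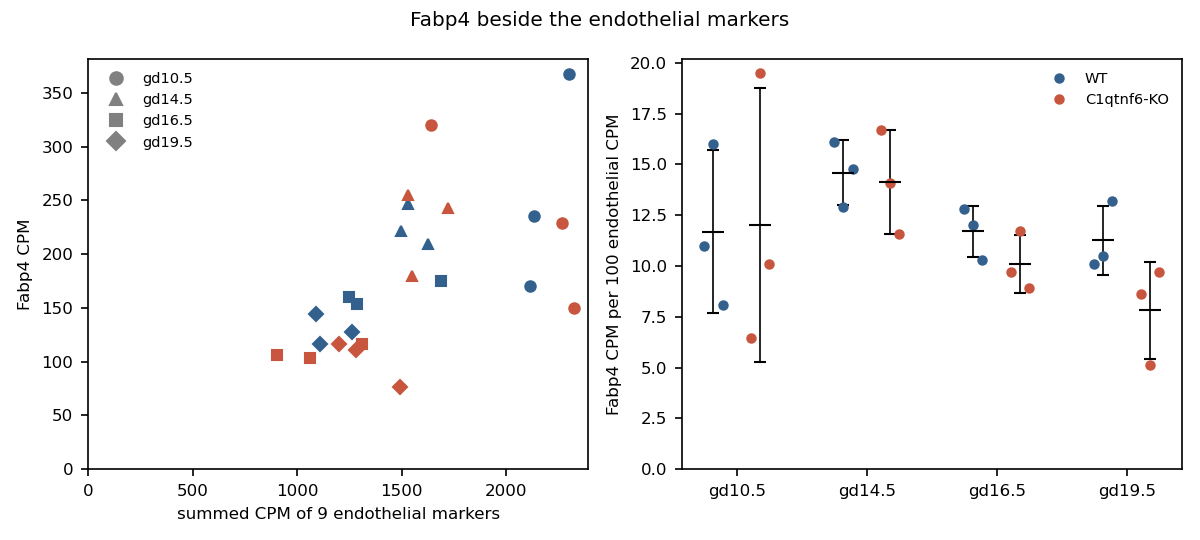
*Fabp4* CPM against the summed CPM of 9 endothelial markers in 24 libraries (left, both axes from 0), and *Fabp4* CPM per 100 CPM of these markers by stage (right; points are libraries, black marks the mean and bars the SD of 3), WT in blue and C1qtnf6-KO in red. On the right the genotypes overlap at gd16.5 (8.91 to 11.7 in KO, 10.3 to 12.8 in WT) and do not at gd19.5 (5.14 to 9.69, 10.1 to 13.2).

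Another 3 genes did not overlap at gd19.5, each higher in KO. *Cd36* had 126, 125 and 128 CPM in WT and 139, 142 and 143 in KO, a log2 fold change of 0.13 (0.01 to 0.26, adjusted p = 0.3514, edgeR). *Lpl* had 54.6 to 63.8 CPM in WT and 64.9 to 86.0 in KO (log2 fold change 0.29, 0.03 to 0.55, adjusted p = 0.3322, and 0.15 without KO replicate 2, which had the 86.0 CPM). *Slc27a4* had 37.9 to 41.4 CPM in WT and 43.2 to 47.7 in KO (0.18, 0.02 to 0.33, adjusted p = 0.3301). All 5 uterine smooth muscle markers had a higher mean in KO and 3 did not overlap, while their sum did (576 to 763 CPM in KO, 537 to 650 in WT), and their part was not tested. Per 100 CPM of endothelial markers, *Cd36* overlapped, with 9.99 to 11.8 CPM in WT and 9.49 to 11.9 in KO. These 3 and *Fabp4* were the 4 genes with an unadjusted p under 0.05, and 4 of 9 without overlap compares with 21.4% of all genes. None was called, where the background was 0.023%. For *Plin2*, *Lipg* and *Slc27a1* the intervals lay within -0.26 and 0.19.

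**Figure D5:**
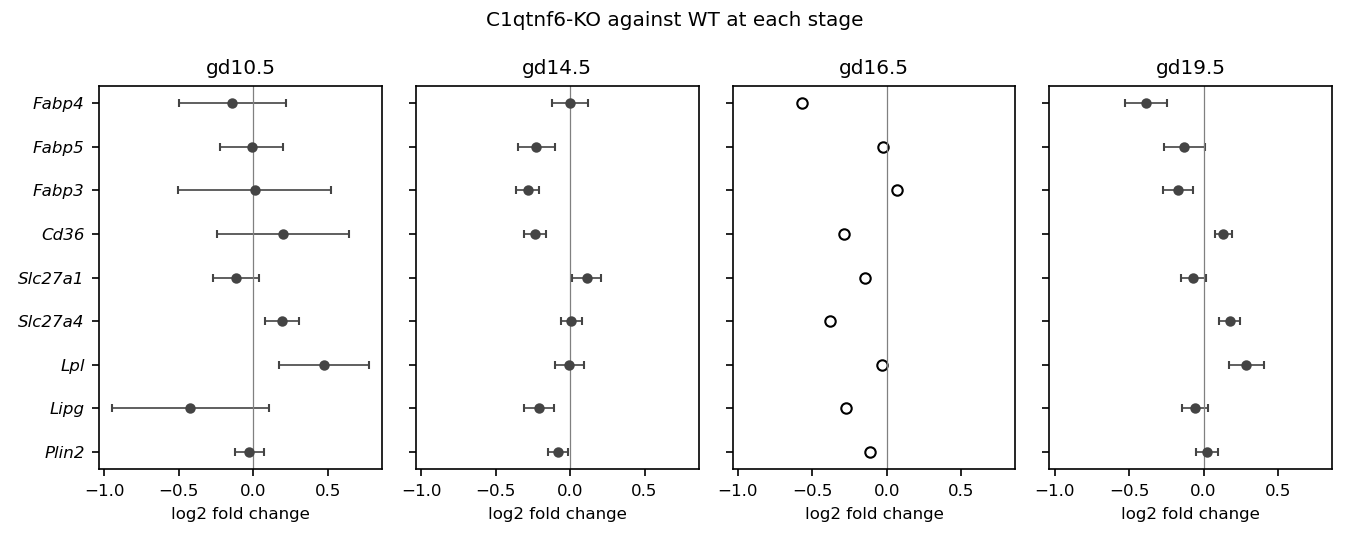
log2 fold change of C1qtnf6-KO against WT for the 9 genes at each stage; bars are SE of the edgeR fit, and gd16.5 is drawn as open points with no error because that contrast entered the choice of genes. *Fabp4* lies at -0.57 at gd16.5 and -0.39 at gd19.5, and near 0 at gd14.5.

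A genotype-by-stage interaction was tested over gd10.5, gd14.5 and gd19.5, without gd16.5. None of the 9 genes was called by edgeR and neither was any other gene (background 0%), with unadjusted p from 0.237 for *Slc27a4* to 0.8335 for *Fabp3* and none under 0.05. DESeq2 called none of the 9 and 5 of all genes.

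Other genes of the pathway, 76 in 7 lists, were counted in the same fits. In KO against WT none was called at gd10.5, gd14.5 or gd19.5, of 63, 59 and 57 tested, and at gd16.5 21 of 58 had a positive log2 fold change with a median of -0.14 (all genes 0.01). From gd10.5 to gd14.5 in WT 9 of 60 were called higher and 9 lower, and in KO 8 and 9 of 63. At this step 10.7% of all WT genes were called higher and 11.6% lower, against 8.53% higher and 10.2% lower for KO, so nothing particular to the lists is read from these counts. Those called higher in both genotypes were the transporters *Slc27a3* and *Slc27a6*, the lipoprotein receptors *Lrp1* and *Lrp8*, the triacylglycerol synthesis genes *Dgat1* and *Mogat1*, *Acadm* of beta-oxidation and the nuclear receptor *Pparg*. *Slc27a6* had 11.4, 13.1 and 10.1 CPM in WT at gd10.5 and 60.9, 74.6 and 78.1 on gd14.5, with a log2 fold change of 2.62 (adjusted p = 3.42e-09, edgeR). *Pparg*, a lipid-sensing receptor that the placenta needs, had 92.0, 103 and 120 CPM and then 271, 264 and 281 (1.38, adjusted p = 1.354e-07).

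*Gpihbp1*, which anchors lipoprotein lipase on capillary endothelium, fell from 50.0, 69.7 and 35.2 CPM to 7.66, 8.68 and 5.98 in WT at that step (-2.78, adjusted p = 3.164e-07, edgeR). The lipoprotein receptor *Scarb1* fell from 373, 259 and 323 CPM to 80.7, 68.7 and 67.3 (-2.13, adjusted p = 7.484e-08). *Ppard*, the delta form of the PPAR receptors, fell as well (-1.12, adjusted p = 9.744e-06). All 3 were called lower in KO too. From gd14.5 to gd16.5, 2 of 60 genes were called higher and 1 lower in WT, and 6 and 2 of 63 in KO, where the shares over all genes are those given above for *Lpl*. From gd16.5 to gd19.5, *Mogat1* alone was called in WT (lower) and none in KO. Over all genes 1.2% were called higher and 0.939% lower in WT at this step, and 0.255% and 0.439% in KO.

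The counts by list show where the calls from gd10.5 to gd14.5 lay in WT, where 10.7% of all genes were called higher and 11.6% lower. The lists are short, and nothing particular to any of them is read from these counts. From gd10.5 to gd14.5 in WT, 2 of 8 uptake genes were called higher and 2 lower, 3 of 13 lipases and regulators higher and 4 lower, and none of 4 fatty acid activation genes. The same step called 2 of 11 triacylglycerol synthesis genes higher and 1 lower, 1 of 9 lipid droplet genes lower, 1 of 9 beta-oxidation genes higher, and 1 of 6 nuclear receptors in each direction.

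The genes most like each of the 9 were named by Pearson r of log2 CPM over the 24 libraries, which mainly follows the stages. For *Fabp3* they were its pseudogene and *Fnd3c2* (r = 0.991), for *Cd36* *B4galt4* (0.993) and *Igfbp2* (0.991), for *Slc27a4* *Pdgfrb* and *Gpr50* (both 0.966), and for *Fabp5* *Gm6166* (0.959) and *Vcpkmt* (0.871). For *Fabp4* they were *Ear2* (0.943) and *Hpse* (0.893), for *Lpl* *Gls2* (0.934) and *Sox9* (0.930), for *Lipg* *Cyp26b1* (0.904) and *Fam129b* (0.890), and for *Slc27a1* *Slc39a13* (0.874) and *Strip2* (0.872). *Plin2*, which hardly moved, had the weakest match, with *Aldh1a2* (0.732).

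Deviations from the 8 group means, which leave the stages out, again ranked *Fabp3-ps1* first for *Fabp3* (r = 0.998) and *Gm6166* first for *Fabp5* (0.949). The next were *Zmym1* for *Fabp3* (0.978) and *Lrrc57* for *Fabp5* (0.870). The others were *Tfpi2* and *Cst3* for *Fabp4* (0.878 and 0.872), *Tmem100* and *Gm9112* for *Cd36* (0.955 and 0.953), and *Stra6* and *Dsp* for *Slc27a4* (0.916 and 0.904). For *Lipg* they were *Psap* and *Smpd1* (0.872 and 0.866), for *Lpl* *Fgf9* (0.830) after a RIKEN gene, for *Slc27a1* *Pfn2* and *Mlkl* (0.783 and 0.779), and for *Plin2* *Ilk* (0.750) after *Gm45286*. Spearman rho of these deviations ran from 0.612 for *Smpd1* with *Lipg* to 0.982 for *Fabp3-ps1* with *Fabp3*. It was 0.67 for *Tfpi2* and 0.689 for *Cst3* with *Fabp4*, below their Pearson r. These correlations share libraries and depth and are descriptions.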

How the data were processed

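PolyA RNA from 24 MFI samples was made into stranded libraries and read in pairs on a HiSeq2500. Per the labels and the study's methods, the authors trimmed reads with Trim Galore 0.6.4, aligned them to GRCm38 with STAR 2.7.3a and deposited raw counts per gene from featureCounts of Subread 2.0.0. With its defaults, strand played no role and multi-mapped reads were not counted.

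Samples were grouped by genotype and stage, with replicate numbers from the library descriptions (KO titles run from 3 to 5). KO was compared with WT within each stage, and successive stages within each genotype (12 libraries each), by the quasi-likelihood test of edgeR 4.0.16 in R 4.3.3 on genes kept by filterByExpr (count of 10, total of 15) with TMM. The thresholds for a call were 0.05 for the adjusted p and 1 for the size of the log2 fold change. CPM used TMM over all 24 libraries, and log2 CPM a prior count of 2. Near copies were found with BLAST 2.17.0. Alternatives were RLE size factors, no filter, 1 fit of all libraries, a replicate block, DESeq2 1.42.0, each library left out, no fold limit and, added after seeing the data, near copies summed. The edgeR step was tested on simulated data. Pairs of replicates differed beyond counting error (chi-square per degree of freedom 8.68 to 188). The members, gene lists and marker lists were chosen with earlier results of these data known. Named genes were the 9 members, *C1qtnf6*, the 2 genes most like each member and list genes that were called.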

Additional observations from a re-analysis of the deposited data

Results flagged for a closer look

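*Slc27a4* and *Cd36* were singled out because all KO libraries lay on one side of WT at one stage and on the other side at another. Groups without overlap were common among all genes, with a share of 12.5% for the gd14.5 comparison, 17.7% for gd16.5 and 21.4% for gd19.5. How many of all genes changed sides was not counted, so nothing particular to *Slc27a4* or *Cd36* is read from the change. *Slc27a4* was lower in KO at gd16.5 (log2 fold change -0.38) and higher at gd19.5 (0.18). The difference between these stages was not tested, since gd16.5 entered the choice of genes. *Cd36* was lower in KO at gd14.5 (-0.23) and higher at gd19.5 (0.13). Its interaction over gd10.5, gd14.5 and gd19.5 gave an unadjusted p of 0.5059 and an adjusted p of 0.9999 in edgeR, and the difference between gd14.5 and gd19.5 alone was not tested.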

How the results depend on the processing

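No member was called between KO and WT at gd10.5, gd14.5 or gd19.5 or in the interaction under any alternative run. The same held from gd16.5 to gd19.5 for the members other than *Fabp4*, which was not tested there. With no expression filter, *Fabp3* at gd14.5 (adjusted p = 0.01026), *Fabp4* (0.0003087) and *Lpl* (0.02298) at gd19.5 passed the adjusted p of edgeR but not the fold limit. With no fold-change limit, 5 genes passed from gd14.5 to gd16.5 in WT and 4 from gd10.5 to gd14.5 in KO. Leaving out each library gave 1 to 2 calls from gd14.5 to gd16.5 in WT and 1 to 2 in KO, where the count includes *Fabp4*, whose gd16.5 values entered the choice, and 2 in both genotypes at the first step. With the replicate block, calls stayed at 2 and 1 for the first and second step in WT and at 2 and 2 in KO. The count for the second KO step again includes *Fabp4*, and nothing is read from that call. The labels do not say that the replicate numbers pair the samples. Same-numbered KO and WT libraries had correlations of their deviations from -0.46 to 0.41, over 0.1 in 5 of 12 pairs. Differently numbered libraries were not compared, so a pairing is not decided by these values. RLE size factors moved no group level by more than 0.738%, and no scaling moved the median log2 fold change of all genes beyond 0.0185 from 0. Of 1010 alternative log2 fold changes of members, 59 changed sign, none of them a called value, and 0 of the called values reversed. Counts of all genes called moved more. Without the expression filter they went from 3 to 44 at gd14.5 and from 4 to 82 at gd19.5 (KO against WT), and from 397 to 672 in WT and 128 to 435 in KO from gd16.5 to gd19.5. DESeq2 gave 2 instead of 1 at gd10.5, 18 at gd19.5, 465 for the last KO step and 5 instead of 0 for the interaction, and the block gave 1, 9 and 11 instead of 3, 4 and 128 at gd14.5, at gd19.5 and for the last KO step. At gd10.5 the spread within groups limits what could be seen.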

Other observations

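Some lipid genes of other tissues were highest at gd16.5 in the libraries with the most yolk sac markers. *Slc27a2*, a transport protein of liver and yolk sac, had 13.4 CPM in WT gd10.5 replicate 1 and 0.972 and 0.508 in the other WT libraries of that stage. At gd16.5 it had 10.2, 1.55 and 0.876 CPM in WT and 10.7, 31.4 and 0.912 in KO, while the yolk sac markers summed to 8031, 241 and 216 CPM in WT and 7682, 21610 and 204 in KO. *Mogat2*, a triacylglycerol synthesis gene, had 4.05, 0.663 and 0.876 CPM in WT and 2.99, 7.09 and 0.593 in KO at the same stage. Across stages it did not follow these markers. It had 8.29 and 7.28 CPM in WT gd10.5 replicates 2 and 3, where they summed to 36.1 and 34.1 CPM. Within gd10.5 *Mogat2* was highest in the libraries with the most of these markers. It had 22.1 CPM in WT replicate 1, where they summed to 3780 CPM. In KO it had 22.7, 6.86 and 24.5 CPM, where they summed to 2185, 1251 and 3653. *Cidec*, a lipid droplet gene, had 0.744, 0.133 and 0.146 CPM in WT and 1.79, 6.23 and 0.456 in KO at gd16.5. *Slc27a2* and *Cidec* were among the 6 list genes called higher from gd14.5 to gd16.5 in KO. These 3 genes were picked after their values were seen.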
